A study of Homo sapiens with 6 samples.

Results

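The siRNAs described here target the kinases that carry signals from tumour necrosis factor, interleukin-1 and pattern-recognition receptors to NF-kB, interferon regulatory factors and cell death. They were chosen as the library wells whose locus identifier belongs to 1 of 15 genes of the IKK, RIPK and IRAK families and their upstream MAP3Ks. Of these genes 13 had a well, 1 each, among 939 library siRNA wells, and IRAK4 and IKBKG are not analysed here. The cells were SUM149PT, a cell line from a triple-negative inflammatory breast cancer. They were grown with each siRNA at 45 nM for 48 hours and then either received EPA (eicosapentaenoic acid, a marine polyunsaturated fatty acid) at 50 µM for 72 hours or were left untreated. There were 3 EPA samples and 3 untreated samples of the same line, and the signal of a well is the raw fluorescence of a resazurin reagent that living cells reduce. The columns of the table are called EPA replicates 4 to 6 and untreated replicates 1 to 3, as they are numbered there. Since the labels do not state that each sample was its own culture, the p-values cover the spread among samples that may be technical repeats. Each gene is represented by a single well, and the knockdown of its target was not analysed here.

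In resting cells NF-kB dimers are held in the cytoplasm by inhibitor proteins. The IKK complex, with the catalytic kinases IKK-beta (IKBKB) and IKK-alpha (CHUK), phosphorylates these inhibitors, which are then degraded. RIPK1 is a scaffold and kinase at the tumour necrosis factor receptor and, with RIPK3, can start necroptosis, a regulated form of necrotic death, while IRAK kinases act below the interleukin-1 and Toll-like receptors. Constitutive NF-kB activity has been described in inflammatory breast cancer. The screen asked which knockdowns make EPA more harmful to the line.

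The place of a well on the plate weighed on its signal. Of the 13 wells, 8 lay in plate row 1 at the upper edge (CHUK on plate 1, IKBKB, IKBKE and MAP3K8 on plate 2, TBK1, RIPK1, RIPK2 and RIPK3 on plate 3), and 5 lay inside the plate. Over the 3 plates the median library well of row 1 read 33734 ± 3910 with EPA and 39433 ± 3824 untreated (SD, n = 3 each), so that 85.5% of the signal was left, while in row 9 it read 9084 ± 1070 with EPA and 17068 ± 2545 untreated, with 53.2% left. Cells without siRNA kept 50.0% and wells of OTP3, the negative control siRNA, kept 50.8% over all plates. Blank wells read 3888 ± 28.9 with EPA and 3738 ± 40.5 untreated, and the lowest reading of any of the 13 siRNAs was 8949. The blank was not subtracted, so every share of signal left includes this background. Because the place on the plate weighed on the signal, each well was set against the other library wells of its own plate row. The row-relative value is its log2 fluorescence minus the median log2 of those wells in the same sample, with the 13 wells left out of the median, which rested on 16 to 19 wells.

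Across the 13 siRNAs the row-relative signals spread in both directions. With EPA 6 were lower than their row (CHUK, IKBKB, IKBKE, MAP3K14, IRAK1 and IRAK3) and 6 were higher (TBK1, MAP3K8, RIPK1, RIPK2, RIPK4 and IRAK2), against 33.8% lower and 33.4% higher among all library siRNAs (limma, adjusted p under 0.05). Untreated, 4 were lower (CHUK, IKBKE, MAP3K14 and IRAK3) and 3 were higher (RIPK3, RIPK4 and IRAK2), against 31.8% and 30.9%. In EPA minus untreated, the synthetic lethal comparison, IKBKB and RIPK3 were lower and TBK1 and RIPK2 were higher. That is 2 of 13 in each direction, close to the 15% lower and 20.1% higher among all library siRNAs. With the median of the whole plate in place of the row, 0 of the 13 were lower and 7 higher, against 15.2% and 29% of the library. Relative to the row, the median of the 13 in EPA minus untreated was 0.25 on the log2 scale, and that of all library siRNAs was 0.11, so a small positive value lies near the bulk of the library. On the row-relative scale the EPA and untreated values did not overlap for 7 of the 13, with 2 lower (20.2% of the library) and 5 higher (28.1% of the library).

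IKBKB encodes the IKK-beta kinase of the canonical pathway (Entrez gene 3551). Its well read 36419, 19489 and 19934 with EPA, against 36865, 44615 and 49356 untreated. All 3 EPA readings lay under all 3 untreated ones, but EPA replicate 4 came close to untreated replicate 1. On average 25281 ± 9649 was left of 43612 ± 6306 (SD, n = 3 each), or 58.0%, while the other library wells of that row kept 87.9%. Row-relative, IKBKB was at -0.62 with EPA (limma adjusted p = 0.00183) and at 0.018 untreated (adjusted p = 0.912). EPA minus untreated was -0.64 (SE 0.195, 95% interval -1.07 to -0.21, adjusted p = 0.0253). In its row only 1 of 17 other wells had a lower difference. With the plate median in place of the row IKBKB stood at 0.71 with EPA and 0.82 untreated, and the difference was -0.11 (adjusted p = 0.661). Without EPA replicate 5, EPA replicate 6, untreated replicate 2 or untreated replicate 3 the difference lay between -0.59 and -0.56 and missed the threshold (adjusted p 0.0781 to 0.0925), whereas without EPA replicate 4 it was -0.79 (adjusted p = 0.0114).

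CHUK, the gene of IKK-alpha (Entrez gene 1147), which also serves the non-canonical pathway, behaved differently in raw signal. Its readings were 32718, 27700 and 27906 with EPA and 23485, 27375 and 30308 untreated, so the groups overlapped and 109% of the signal was left. The well stood below its row in both groups, at -0.36 with EPA (adjusted p = 0.0186) and -0.61 untreated (adjusted p = 0.000892). Its EPA minus untreated value of 0.25 did not pass (95% interval -0.12 to 0.62, adjusted p = 0.262). CHUK lay in column 23, next to the outermost column, and set against the plate median it was at 0.97 with EPA and 0.16 untreated. The sign with EPA thus depended on whether the edge row or the whole plate was the comparison. Without EPA replicate 4 or 6 the EPA value was -0.28 or -0.34 and missed the threshold (adjusted p = 0.106 and 0.0751).

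The IKK-related kinases IKBKE and TBK1 phosphorylate interferon regulatory factors. IKBKE (Entrez gene 9641) gave the lowest row-relative signal of the 13 in both groups. Its well read 16983, 10174 and 9972 with EPA and 15904, 16627 and 17397 untreated, which is 12376 ± 3991 against 16643 ± 747 (SD, n = 3 each). The EPA replicates spread widely and 1 of them lay among the untreated readings. Row-relative it was at -1.64 with EPA (SE 0.105, adjusted p = 2.48e-07) and at -1.36 untreated (adjusted p = 9.46e-07), the second lowest of 18 ranked wells in each group. The EPA minus untreated value was -0.27 (95% interval -0.60 to 0.05, adjusted p = 0.173). The signal was low in both groups, and the interval of the difference includes 0. The plate median left it low, at -0.30 with EPA and -0.56 untreated (adjusted p = 0.0418 and 0.00178).

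TBK1 (Entrez gene 29110) lay on the other side of its row. It read 45237, 36507 and 40256 with EPA and 38521, 36175 and 47577 untreated, so the raw groups overlapped and 99.8% of the signal was left. The other library wells of that row kept 70.7%. The row-relative value was 0.72 with EPA (adjusted p = 8.17e-05) and 0.24 untreated (adjusted p = 0.0603), and EPA minus untreated was 0.48 (SE 0.148, 95% interval 0.16 to 0.80, adjusted p = 0.0262). This call ended after median polish of plate rows and columns (0.18, adjusted p = 0.518). The call also ended with the mean of the OTP3 wells of row 1 over the 3 plates as the comparison (0.27, adjusted p = 0.187). It also ended without EPA replicate 4 or 6 or untreated replicate 1 or 3, at 0.43 to 0.47 (adjusted p 0.0534 to 0.0961).

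Of the MAP3Ks, MAP3K14 encodes NIK, which activates IKK-alpha in the non-canonical pathway, and MAP3K8 encodes TPL2, which activates MEK below IKK-beta. MAP3K14 (Entrez gene 9020), an inner well in row 15, read 13511, 8949 and 10797 with EPA, against 17098, 19856 and 20665 untreated. Every EPA reading was under every untreated one, and 57.7% was left, but the other wells of its row also kept only 67.7%. It was below its row in both groups, at -0.91 with EPA (adjusted p = 3.55e-05) and -0.69 untreated (adjusted p = 0.000375). Its difference of -0.23 did not pass (95% interval -0.60 to 0.14, adjusted p = 0.305). After median polish the untreated value was -0.25 (adjusted p = 0.126) and the EPA value -0.58 (adjusted p = 0.00151).

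MAP3K8 (Entrez gene 1326), in the edge row of plate 2, read 57667, 42892 and 48059 with EPA and 45917, 48693 and 45132 untreated. Its mean with EPA was the highest of the 13, and the raw groups overlapped with 106% left. Row-relative, MAP3K8 was at 0.40 with EPA (adjusted p = 0.00783) and 0.12 untreated (adjusted p = 0.359), and its difference of 0.28 did not pass (95% interval -0.07 to 0.63, adjusted p = 0.195). Set against the plate median that difference was 0.81 (adjusted p = 0.00137), and with the 6 nearest wells of the row as the comparison it was 0.63 (adjusted p = 0.0114). The EPA value was lost without EPA replicate 6 (0.35, adjusted p = 0.0639).

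RIPK1, RIPK2 and RIPK3 lay in row 1 of plate 3, in columns 17, 19 and 21, with other wells between them. RIPK3 (Entrez gene 11035), which phosphorylates the necroptosis effector MLKL, stood apart from the other two. The RIPK3 well read 24209, 23464 and 27640 with EPA, against 52732, 46552 and 55637 untreated, or 25104 ± 2227 against 51640.3 ± 4640 (SD, n = 3 each). The groups were far apart, and 48.6% of the signal was left. Among the 60 library wells in row 1 of the 3 plates it had the 5th lowest share left. RIPK1 (Entrez gene 8737) read 42945, 33476 and 30364 with EPA and 32575, 35680 and 34097 untreated, or 104% left. RIPK2 (Entrez gene 8767), the kinase below the NOD receptors, read 48855, 34156 and 46839 with EPA and 34528, 39424 and 51234 untreated, also 104% left. In both genes the raw groups overlapped.

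Row-relative, RIPK3 was at 0.03 with EPA (adjusted p = 0.837) and at 0.59 untreated (adjusted p = 0.00145). Its signal thus stood above its row without EPA and level with the row's median with EPA. EPA minus untreated was -0.56 (SE 0.175, 95% interval -0.94 to -0.18, adjusted p = 0.0275), and 3 of 16 other wells in the row had a lower difference. RIPK2 was at 0.80 with EPA (adjusted p = 0.00019) and 0.27 untreated (adjusted p = 0.0883), with a difference of 0.53 (SE 0.181, 95% interval 0.14 to 0.93, adjusted p = 0.0397). RIPK1 was at 0.52 with EPA (adjusted p = 0.00535) and -0.0035 untreated (adjusted p = 0.982), and its difference of 0.53 just missed the threshold (SE 0.194, 95% interval 0.10 to 0.95, adjusted p = 0.0539). After median polish RIPK3 was at -0.65 (adjusted p = 0.00458), RIPK2 at 0.04 (adjusted p = 0.914) and RIPK1 at 0.26 (adjusted p = 0.199). With the 6 nearest wells of the row as the comparison RIPK3 was at -0.26 (adjusted p = 0.323), RIPK2 at 0.65 (adjusted p = 0.0147) and RIPK1 at 1.03 (adjusted p = 0.00171). Set against the plate median the difference of RIPK3 was -0.23 (adjusted p = 0.196), that of RIPK2 0.87 (adjusted p = 0.0066) and that of RIPK1 0.86 (adjusted p = 0.00154). The RIPK3 call was lost without EPA replicate 4 or 5 or untreated replicate 1 or 2, at -0.53 to -0.47 (adjusted p 0.0669 to 0.0915). That of RIPK2 was lost without EPA replicate 4 or 6 or untreated replicate 1 or 3, at 0.42 to 0.52 (adjusted p 0.0798 to 0.137), and RIPK1 passed without untreated replicate 2 (0.71, adjusted p = 0.0199).

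A direct ratio of wells in the same row and sample needs no row median. Wells of these siRNAs in 1 plate row share the same row median. The change of a ratio with EPA therefore equals the difference between their EPA minus untreated values and is no separate evidence. The log2 ratio of RIPK2 to RIPK3 was 0.77 ± 0.24 with EPA and -0.32 ± 0.26 untreated (SD, n = 3 each), a shift of 1.10. That of RIPK1 to RIPK3 was 0.49 ± 0.35 with EPA and -0.60 ± 0.18 untreated, a shift of 1.09, and that of TBK1 to RIPK3 moved by 1.04. In each of these 3 ratios every EPA sample lay above every untreated sample. Between the wells of TBK1, RIPK1 and RIPK2 the shifts were -0.05, -0.05 and -0.01, with overlapping groups. On plate 2 the ratio of IKBKB to MAP3K8 was -1.02 ± 0.32 with EPA and -0.10 ± 0.22 untreated, and that of IKBKB to IKBKE was 1.01 ± 0.08 with EPA and 1.38 ± 0.15 untreated, again without overlap. The ratio of IKBKE to MAP3K8 was -2.04 ± 0.25 with EPA and -1.49 ± 0.10 untreated, also without overlap. Of 12 such pairs 6 did not overlap, each with an exact permutation p of 0.1 (two-sided), the smallest that 3 against 3 allows, and 0.2 after Benjamini-Hochberg adjustment over the 12. These pairs share wells, since each of the 6 holds RIPK3 or joins wells of IKBKB, IKBKE and MAP3K8. The share among pairs of other library wells was not computed. Among single library wells relative to the row, 20.2% did not overlap with EPA lower and 28.1% with EPA higher.

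RIPK4 (Entrez gene 54101, listed in the file under its older symbol ANKRD3), a kinase of keratinocyte differentiation, lay in an inner well of plate 1. It read 27544, 25774 and 24245 with EPA, against 33665, 38446 and 36847 untreated. The groups did not overlap, yet 71.2% was left where the other wells of row 13 kept 59.6%. It stood above its row in both groups, at 0.82 with EPA (adjusted p = 3.55e-05) and 0.57 untreated (adjusted p = 0.000696), and the difference of 0.26 did not pass (95% interval -0.08 to 0.59, adjusted p = 0.208). After median polish the EPA value was 0.49 (adjusted p = 0.00151) and the untreated value 0.19 (adjusted p = 0.173).

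The IRAK wells lay together in row 3 of plate 2, away from the edge. IRAK1 (Entrez gene 3654), the kinase that passes the interleukin-1 receptor signal to TRAF6, read 14075, 13908 and 11880 with EPA and 23259, 15588 and 21482 untreated, with no overlap and 66.1% left. IRAK2 (Entrez gene 3656) read 35896, 29299 and 29055 with EPA and 34466, 38126 and 36331 untreated, or 86.5% left, with overlap. IRAK3 (Entrez gene 11213), known as IRAK-M and as an inhibitor of Toll-like receptor signalling, read 17753, 12177 and 9166 with EPA and 12060, 12599 and 14235 untreated, or 101% left, with overlap. The other library wells of that row kept 76.9%, so the 3 shares lay on both sides of it.

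Row-relative, IRAK2 was high in both groups, at 0.83 with EPA (adjusted p = 3.35e-05) and 0.65 untreated (adjusted p = 0.000256). IRAK3 was low in both, at -0.49 with EPA (adjusted p = 0.00743) and -0.84 untreated (adjusted p = 0.000224). IRAK1 was low with EPA (-0.41, adjusted p = 0.0202) and did not pass untreated (-0.22, adjusted p = 0.178). None of the 3 passed in EPA minus untreated by limma, at -0.19 for IRAK1 (95% interval -0.61 to 0.24), 0.18 for IRAK2 (-0.15 to 0.51) and 0.35 for IRAK3 (-0.07 to 0.77). An unadjusted p under 0.05 was found for 0 of the 3, against 421 of 939 library siRNAs. IRAK3 passed with the 6 nearest wells of the row (0.78, adjusted p = 0.00281) and with the plate median (0.69, adjusted p = 0.0114), and IRAK2 with the plate median (0.52, adjusted p = 0.0112). Across the ratios of 1 IRAK well to another the EPA and untreated samples overlapped in all 3 pairs (exact permutation p 0.2 to 0.5, two-sided). The EPA values of IRAK1 and IRAK3 depended on the comparison wells. After median polish IRAK1 was at 0.27 (adjusted p = 0.0425) and IRAK3 at -0.33 (adjusted p = 0.0661), and without EPA replicate 6 both missed the threshold, at -0.38 and -0.31 (adjusted p = 0.0855 and 0.0929), as IRAK1 did without EPA replicate 4 (-0.30, adjusted p = 0.123).

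Control wells of the same rows give a second scale. In row 1 of plate 3 the pair of OTP3 wells kept 83.1% of their signal with EPA, and as a share of them RIPK3 stood at 53.1% ± 13.1 with EPA and 88.5% ± 5.34 untreated (SD, n = 3 each). On that scale RIPK2 was at 91.2% ± 24.3 with EPA and 71.4% ± 13.0 untreated, and TBK1 at 85.0% ± 13.8 with EPA and 69.8% ± 8.16 untreated. IKBKB was at 49.4% ± 20.0 of its row's OTP3 with EPA and at 70.8% ± 11.1 untreated. In 5 of the 6 plate rows that hold these siRNAs the median other well stood at a larger share of OTP3 with EPA than untreated. Row 1 of plate 3, which holds TBK1, RIPK1, RIPK2 and RIPK3, went the other way, at 51.2% ± 4.66 with EPA and 59.5% ± 11.3 untreated. In row 3 of plate 2 the median other well was at 65.7% ± 4.27 with EPA and 42.8% ± 1.91 untreated, beside IRAK2 at 117% ± 8.42 with EPA and 67.2% ± 4.86 untreated. All 13 were also fitted against the mean of the OTP3 wells of their row number over the 3 plates, not of their own plate alone. In EPA minus untreated RIPK3 was then lower (-0.77, adjusted p = 0.00338), IKBKB was at -0.57 (adjusted p = 0.0563), and IRAK2, IRAK3 and RIPK4 were higher. In that fit 276 of 459 library siRNAs were called, both directions together. With all OTP3 wells of the plate as the comparison, edge and inner rows together, RIPK3 was at 0.15 (adjusted p = 0.266) and IKBKB at 0.36 (adjusted p = 0.0913). On that scale 0 of the 13 were lower and 10 higher, while 609 of 939 library siRNAs were called, both directions together. For these OTP3 fits the library was not split by direction, so the counts lower and higher have no matching library share.

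In raw fluorescence the EPA readings lay wholly under the untreated ones for 5 of the 13 siRNAs (IKBKB, MAP3K14, RIPK3, RIPK4 and IRAK1), against 61.7% of all library siRNAs. Within row 1 that held for 2 of 8, IKBKB and RIPK3, and for 12 of the 52 other library wells (23.1%), so row 1 carried few such wells of any kind. The share of signal left in row 1 ranged from 48.6% (RIPK3) to 109% (CHUK) among the 8, with a median of 102%, and from 27.7% to 135% among the 52, with a median of 87.1%.

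Other genes of the pathway were read against the same 15% lower and 20.1% higher of the library in EPA minus untreated. Of the RIPK relatives and necroptosis genes 3 of 5 were measured, with 0 lower and 1 higher, LRRK1 at 0.88 (SE 0.244, adjusted p = 0.0171). LRRK1 read 25880, 17794 and 11696 with EPA and 14428, 12379 and 15160 untreated, so its EPA readings spread widely and the raw groups overlapped. MLKL, the pseudokinase that RIPK3 phosphorylates and that ruptures the membrane in necroptosis, was at 0.06 (adjusted p = 0.797). Its well, in column 24, read 27336 on average with EPA and 37548 untreated and stood above its row in both groups. Of the TAK1 complex and the MAP3Ks that feed IKK 5 of 7 were measured, with 0 lower and 1 higher, MAP3K2 at 0.58 (adjusted p = 0.00879). MAP3K7, the gene of TAK1, was at -0.85 with EPA and -0.83 untreated, with a difference of -0.02 (adjusted p = 0.947). Among 10 other kinases upstream of NF-kB, PRKCQ, a protein kinase C of T cells, was lower at -0.90 (SE 0.174, adjusted p = 0.00281), and CSNK2A2 (0.56, adjusted p = 0.0108) and PDPK1 (0.67, adjusted p = 0.0399) were higher. The CSNK2A2 well read 5355 ± 329 with EPA and 6986 ± 223 untreated (SD, n = 3 each), not far above the blank. It stood below its row in both groups, at -1.35 with EPA and -1.90 untreated. PDPK1 read 21124, 11400 and 10002 with EPA and 16729, 8725 and 17472 untreated, so its raw groups overlapped. Of the cytokines and chemokines in this group 9 of 13 genes were measured in 10 wells, with 0 lower and 1 higher. That was CCL17 at 0.91 (adjusted p = 0.00107), whose single well read 4490 ± 453 with EPA and 4400 ± 254 untreated (SD, n = 3 each). This is near the blank level, where little further loss can be read.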

How the data were processed

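Resazurin fluorescence was measured in 1152 wells on 3 plates of 16 rows and 24 columns, in 3 EPA and 3 untreated samples. The values are raw fluorescence intensity as deposited by the authors, per the file headers. Blank wells read 3888 with EPA and 3738 untreated, so their mean had not been subtracted. Whether values were normalized in another way is not given in the sources used here. All 6 columns were used. Columns were assigned to groups by their header. Wells were matched to genes by locus identifier through a RefSeq table of GRCh38.p14 (933 of 939 matched). The 21 wells without siRNA were left out.

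Log2 values were set against the plate row, because fluorescence at the plate edge differed. limma 3.58.1 (R 4.3.3; trend and robust options) fitted a mean per group to all 939 wells, two-sided, with Benjamini-Hochberg adjustment over all wells at 0.05. No pseudocount or filter was used. The error covers the samples, not the choice of row wells. Single values were compared by exact permutation tests (scipy 1.17.1). All 13 siRNAs are named; of the other lists, up to 4 called wells with the largest moderated statistic, and MLKL and MAP3K7 after their values were seen. The 13 siRNAs and the lists were chosen with earlier results of these data known. The fit was tested on simulated data. The alternatives were other reference wells, subtraction of the blank mean (floor at 3 blank SDs), median polish, another variance model, a low-signal filter and leaving out each sample. Precision is limited by 3 samples per group.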

Additional observations from a re-analysis of the deposited data

How the results depend on the processing

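Each of the 3 comparisons was recomputed under 16 alternatives, and every one was planned. No paired analysis was possible because the columns are numbered 1 to 6 and carry none of the labels' replicate numbers. Each fit that leaves out a sample has a group of 2. OTP3 of the row means the OTP3 wells of that row number averaged over the 3 plates. In EPA minus untreated, the siRNAs lower and higher among the 13 (2 and 2) numbered 0 and 7 with the plate median, 0 and 10 with OTP3 of the plate, 1 and 3 with OTP3 of the row, 1 and 5 with the 6 nearest wells, 2 and 0 with all wells of the row, 2 and 1 after blank subtraction, 2 and 0 after median polish and 1 and 0 after both. Leaving out 1 sample gave 0 to 1 lower and 0 to 3 higher. With EPA (6 and 6) they numbered 2 lower with the plate median and 8 lower and 2 higher with OTP3 of the row, and leaving out 1 sample gave 3 to 6 lower and 5 to 6 higher. Untreated (4 and 3), 8 were higher with the plate median, 10 lower and 1 higher with OTP3 of the plate, 12 and 0 with OTP3 of the row, and 5 higher after median polish. Over the library, both directions together, 609 of 939 were called in EPA minus untreated with OTP3 of the plate (330 with the row). There were 415 with the plate median, 339 with the 6 nearest wells and 325 with all wells of the row. Blank subtraction gave 334, median polish 285 and both 260. With EPA 689 were called with the plate median (631 with the row) and 562 to 627 with 1 sample left out. For EPA minus untreated the library totals with 1 sample left out are not given here. Untreated, 869 were called with OTP3 of the plate (589 with the row), 652 with the plate median and 505 after median polish. With OTP3 of the row only the 459 wells of odd rows were tested. Of these 276 were called in EPA minus untreated, 340 with EPA and 425 untreated. 

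Signs of values that passed the threshold with the plate row, with the alternative or with both turned as follows, and the cause was not tested. With the plate median CHUK stood at 0.97 and IKBKB at 0.71 with EPA, and CHUK at 0.16 and RIPK1 at 0.77 untreated. With OTP3 of the plate CHUK was at 0.27 and IKBKB at 0.082 with EPA, and IKBKB at -0.28, MAP3K8 at -0.18, RIPK4 at -0.44 and IRAK2 at -0.54 untreated, while EPA minus untreated was 0.36 for IKBKB, 0.73 for IKBKE, 0.15 for RIPK3 and 0.62 for IRAK1. With OTP3 of the row TBK1 was at -0.28, RIPK1 at -0.48, RIPK2 at -0.20 and RIPK3 at -0.97 with EPA, and IKBKB at -0.45, TBK1 at -0.55, MAP3K8 at -0.34, RIPK2 at -0.52, RIPK3 at -0.20, RIPK4 at -0.35 and IRAK2 at -0.42 untreated. IRAK3 with EPA was at 0.11 with the 6 nearest wells, and IRAK1 with EPA at 0.27 after median polish and 0.46 with blank subtraction too, where TBK1 was at -0.037 and RIPK2 at -0.13 in EPA minus untreated. RIPK3 was called lower in EPA minus untreated under 9 of 16 alternatives, IKBKB and TBK1 in its own direction under 8 each and RIPK2 under 7.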
